A study of Homo sapiens with 24 samples.

Results

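The 9 genes described here are cytochrome P450 genes of oxidative metabolism and TIPARP, which is not a P450. CYP1A1, CYP1B1, TIPARP and CYP2S1 are induced by the aryl hydrocarbon receptor (AHR). The others are the fatty acid hydroxylases CYP4F2, CYP4F3, CYP4F11 and CYP4F12, and CYP24A1. All 9 were chosen by name out of the 60666 genes in the count table, with earlier results of these data known, and each matched 1 Ensembl gene ID. Their RNA was followed through 24 libraries from the human lung cancer lines A549 and H460, in which the study depleted RICTOR, a subunit of the kinase complex mTORC2, with an siRNA (siRIC) and compared it with a control siRNA (siNT). From each, total RNA and RNA from polysomal fractions, which holds messages bound by several ribosomes, were sequenced. This gave 8 groups of 3 libraries: siNT total, siNT polysomal, siRIC total and siRIC polysomal in each line.

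All groups came from cells kept in RPMI medium with 10% fetal bovine serum. The labels call the siNT cells wild type and the siRIC cells Rictor knockdown, and a knockdown by siRNA leaves part of the RNA in place. The siRNA sequences and the time after transfection are not given in the sources used here, and each line is a single established cell line. The replicate number (1 to 3) is given in the labels as a batch, and nothing says that the replicates were separate cultures, so the p-values may measure technical spread only. Library names carry another number, which is not the replicate number, and some of those recur in both lines. Numbers in this text are replicate numbers. Links between the lines through the library names were not used.

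Libraries held 19087204 to 26550160 estimated counts. Both lines had the epithelial keratins KRT8 and KRT18 (means of 4216 and 4277 CPM in A549 siNT total RNA, 932 and 658 CPM in H460; CPM are counts scaled to the size of the library). The epithelial cadherin CDH1 was at 122 CPM in A549 and at 0 in every H460 library, and the alveolar type II markers SFTPA1 and SFTPB were at 0 in siNT total RNA of both lines, so the alveolar identity of the tissue label is not seen in these markers. PTPRC and CD3E (leukocytes), PECAM1 and CDH5 (endothelium), ALB (hepatocytes) and COL1A2 (fibroblasts) were at or near 0. These are a part of the markers looked up. Levels of EPCAM, KRT7, KRT19, SFTPC, NKX2-1, NAPSA, CD68, VWF, APOA2, TTR, COL1A1, DCN and PDGFRB are not given here. The absence of a cell type therefore does not follow from the markers shown. Libraries that lay apart from the rest of their group were A549 siRIC polysomal number 1 and, in H460, both polysomal libraries numbered 3. RICTOR itself differed by −1.38 ± 0.23 (log2 change ± SE, adjusted p = 0.0159) in A549 total RNA and −1.49 ± 0.23 (adjusted p = 0.00700) in A549 polysomal RNA. In H460 it was −1.52 ± 0.30 and −1.90 ± 0.31, which did not pass after adjustment over all genes (adjusted p = 1 and 0.620). The H460 groups did not overlap in either fraction. Of all genes tested, 6.31% in total and 1.73% in polysomal RNA were lower without overlap. RICTOR in H460 was called lower by DESeq2 (adjusted p = 0.00567 in total and 4.49e-05 in polysomal RNA), with no filter on low counts (0.0379 and 0.00133), and without the polysomal libraries numbered 3 (0.00214 and 0.0120), and in total RNA also with only the compared groups in the fit (0.00235). The A549 total call was lost in 5 of 12 fits that left out a library (adjusted p up to 0.122).

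AHR is a transcription factor that waits in the cytosol in a chaperone complex, moves to the nucleus when a ligand such as dioxin binds it, pairs with ARNT (also called HIF-1β, the partner that it shares with the hypoxia-inducible factors) and binds DNA at the letters GCGTG. CYP1A1 and CYP1B1, enzymes that oxidize polycyclic hydrocarbons and estrogens, are its classical targets. TIPARP, a mono-ADP-ribosyltransferase, is induced by AHR and limits its activity, and CYP2S1 is a dioxin-inducible P450 of epithelia. The CYP4F enzymes hydroxylate the far end of fatty acids: CYP4F3 inactivates leukotriene B4, CYP4F2 makes 20-HETE from arachidonic acid and degrades vitamins E and K, CYP4F11 acts on vitamin K and 3-hydroxy fatty acids, and CYP4F12 acts on arachidonic acid and some drugs. CYP24A1 is the mitochondrial enzyme that breaks down active vitamin D and is itself induced by the vitamin D receptor.

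The start regions are shown first because 2 of the AHR-induced genes hold the AHR core there. A further reason is a stretch of bases shared by windows of CYP4F3 and CYP4F11. Any part of that stretch in the response to RICTOR depletion was not tested. RefSeq windows (GRCh38.p14, 250 bases before to 50 after an annotated start, 300 in all) were on hand for 6 of the 9 genes, 9 windows in all. A gene can have several annotated starts, not all at its outermost end. CYP1B1, CYP4F12 and CYP24A1 had no window. The motifs GCGTG (AHR core), TNGCGTG (its longer form), ACGTG (the core bound by hypoxia-inducible factors) and TATAAA were searched on both strands. In the CYP1A1 window (chr15:74725479-74725778, minus strand) and a TIPARP window (chr3:156674340-156674639, plus strand), capitals mark GCGTG or its reverse complement.
CYP1A1: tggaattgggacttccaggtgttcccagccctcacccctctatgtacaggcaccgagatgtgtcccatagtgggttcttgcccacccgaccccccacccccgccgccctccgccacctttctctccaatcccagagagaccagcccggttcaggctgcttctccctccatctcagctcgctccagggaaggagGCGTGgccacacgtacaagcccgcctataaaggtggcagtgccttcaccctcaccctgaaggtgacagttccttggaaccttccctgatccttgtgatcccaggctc
TIPARP: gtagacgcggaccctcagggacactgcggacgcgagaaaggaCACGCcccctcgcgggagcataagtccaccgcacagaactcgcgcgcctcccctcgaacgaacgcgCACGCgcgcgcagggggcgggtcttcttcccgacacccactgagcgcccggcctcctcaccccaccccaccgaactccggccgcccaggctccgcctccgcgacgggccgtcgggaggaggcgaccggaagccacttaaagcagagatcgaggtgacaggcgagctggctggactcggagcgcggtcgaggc
The CYP1A1 window had GCGTG at position −57 from the start, ACGTG on the other strand at −48, and TATAAA at −32. The TIPARP window had GCGTG on the reverse strand at −208 and −142, and the other 2 TIPARP windows had none. None of these windows held TNGCGTG. Over all 35116 windows, 36.5% held GCGTG, 5.51% TNGCGTG, 21.4% ACGTG and 11.5% TATAAA, so a match of the short core is common.

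None of the 4 motifs was in the windows of CYP2S1, CYP4F2, CYP4F3 or CYP4F11. In the CYP4F3 window (chr19:15641062-15641361, plus strand) and the nearer of the CYP4F11 windows (chr19:15934480-15934779, minus strand), capitals mark the longest run of identical bases, 19 long.
CYP4F3: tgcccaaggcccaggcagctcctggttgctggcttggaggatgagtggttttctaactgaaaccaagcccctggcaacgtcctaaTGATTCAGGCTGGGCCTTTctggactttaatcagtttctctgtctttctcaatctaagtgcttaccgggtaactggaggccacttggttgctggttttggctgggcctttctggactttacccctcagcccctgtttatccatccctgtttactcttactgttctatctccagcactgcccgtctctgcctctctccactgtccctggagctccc
CYP4F11: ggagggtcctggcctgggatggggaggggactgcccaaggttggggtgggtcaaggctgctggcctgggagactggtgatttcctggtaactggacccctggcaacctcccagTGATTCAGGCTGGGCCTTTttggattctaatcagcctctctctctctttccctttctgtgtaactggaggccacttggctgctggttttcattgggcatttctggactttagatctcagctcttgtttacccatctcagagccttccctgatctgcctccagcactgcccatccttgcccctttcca
Both printed CYP4F windows lie inside the annotated spans of their genes, whose outermost starts are at 15640897 (CYP4F3) and 15934867 (CYP4F11, minus strand). The CYP4F3 window shared a longest run of 8 bases with the other CYP4F11 window, which is at that gene's outermost start. With the CYP4F2 window the longest run of CYP4F3 was 9 bases. The CYP4F2 window shared a run of 20 bases, longer than that of CYP4F3, with the other CYP4F11 window. The 4 CYP4F genes lie together on chromosome 19 (GRCh38.p14, 15640897 to 15934867, 294 kb), a stretch in which the annotation places 9 protein-coding genes. CYP2S1 is also on chromosome 19 (41193219 to 41207539), CYP1A1 on chromosome 15 (74719542 to 74725528), CYP1B1 on chromosome 2 (38067509 to 38076151), TIPARP on chromosome 3 (156674590 to 156706770) and CYP24A1 on chromosome 20 (54143538 to 54173986).

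The lines differed in nearly all of these genes. A549 had the higher level of CYP24A1, CYP2S1, CYP4F3, CYP4F12 and TIPARP, and H460 that of CYP1B1 and CYP4F11. The 6 members that passed the filter on low counts in each line's own fit were all called in siNT total RNA (2 higher and 4 lower in H460), where 55.1% of 16507 genes were called (26.2% higher and 28.9% lower), and again in siNT polysomal RNA, where 58.2% were called (29.9% and 28.3%). CYP4F12 passed the filter through its A549 libraries alone, so its call between lines is not counted. CYP1A1 and CYP4F2 did not pass it. Levels are CPM with TMM scaling, which compare a gene between libraries and not 1 gene with another, since no transcript lengths were used. In RNA from whole cultures, fewer cells with a message and less of it per cell cannot be told apart.

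CYP24A1 was abundant in A549 and nearly silent in H460. In A549 siNT total RNA it stood at 900.3, 677 and 1098 CPM in libraries 1, 2 and 3 (mean 892 ± 210, SD, n = 3), and in H460 siNT total RNA at 0.611, 0.474 and 0.929 CPM (mean 0.671 ± 0.233). The lowest A549 library of any group, 597 CPM, lay far above the highest H460 library, 0.929 CPM. The log2 difference of H460 against A549 was −10.36 ± 0.42 in total RNA (adjusted p = 2.78e-15) and −10.44 ± 0.43 in polysomal RNA (adjusted p = 3.01e-15). CYP2S1 had the same order, with 71.6, 60.5 and 87.5 CPM in A549 siNT total RNA and 1.02, 0.948 and 0.975 CPM in H460. Its log2 difference was −6.21 ± 0.26 (adjusted p = 3.95e-15) in total and −6.76 ± 0.27 (adjusted p = 2.11e-15) in polysomal RNA.

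Of the other AHR-induced genes, CYP1B1 went the opposite way. It was at 53.2, 55.0 and 56.8 CPM in A549 siNT total RNA and at 334, 370.4 and 373 CPM in H460, 6.53 times higher (log2 difference 2.71 ± 0.20, adjusted p = 6.99e-11). In polysomal RNA the difference was 2.41 ± 0.20 (adjusted p = 4.47e-10). TIPARP was at 13.0, 17.3 and 13.3 CPM in A549 and 6.67, 8.34 and 7.61 CPM in H460, a difference of −0.95 ± 0.23 (adjusted p = 0.00142) in total and −1.44 ± 0.24 (adjusted p = 1.74e-05) in polysomal RNA. CYP1A1 was barely detected: no library exceeded 0.467 CPM or 11 counts, and 3 counts, the limit that a count of 0 allows, correspond to 0.108 to 0.191 CPM in these libraries. Summed over 3 libraries, there were 21 CYP1A1 counts for A549 siNT total and 2 for H460 siNT total, a depth-scaled ratio of 8.73 (95% interval 2.13 to 76.8, counting error only). In polysomal RNA there were 8 and 2, and the interval of the ratio of 2.75 included 1 (0.549 to 26.6). The receptor AHR followed CYP1B1, with 20.2, 19.1 and 26.1 CPM in A549 siNT total RNA and 84.3, 76.5 and 89.1 CPM in H460 (log2 difference 1.93 ± 0.20, adjusted p = 1.65e-08), while ARNT did not pass (−0.16 ± 0.17, adjusted p = 0.421).

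Within the CYP4F group, CYP4F11 was higher in H460 and the other 3 genes were lower. CYP4F11 was at 58.7, 65.9 and 83.8 CPM in A549 siNT total RNA and at 210.0, 212 and 223 CPM in H460 (log2 difference 1.63 ± 0.22, adjusted p = 1.27e-06). CYP4F3 was at 19.2, 16.3 and 27.9 CPM in A549 and at 2.65, 2.18 and 2.88 CPM in H460 (−3.04 ± 0.26, adjusted p = 1.20e-09). The polysomal differences were 1.46 ± 0.22 for CYP4F11 and −3.14 ± 0.28 for CYP4F3 (adjusted p = 5.42e-06 and 1.53e-09). CYP4F12 was scarce in both lines, with 122 counts over 3 A549 siNT total libraries and 2 in H460 (ratio 50.7, 95% interval 13.7 to 424). In polysomal RNA it had 192 and 8 counts, a smaller ratio of 16.5 (8.20 to 38.7). CYP4F2 summed to 32 counts over the A549 siNT total libraries (5 to 19 in each) and to 0 over those of H460. Against a floor of 3 counts over the H460 group, the depth-scaled ratio was 8.87. That ratio leaves out the counting error of the A549 sum and the spread between its libraries. In polysomal RNA CYP4F2 had 23 and 3 counts (ratio 5.27, 1.59 to 27.4).

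The order of the 8 groups was set by the line for every member that passed the filter in each line's own fit. Neighbours within a line mostly overlapped. For CYP1B1, TIPARP, CYP2S1 and CYP24A1, each group overlapped the next in the order except at the step between lines. CYP4F12 looked the same, but it passed the filter through its A549 libraries alone, so its order between lines is not counted. CYP4F11 had a further gap within A549, between siNT total (lowest 58.7 CPM) and siRIC polysomal (highest 56.5 CPM). CYP4F3 was the most finely graded, from a mean of 21.1 CPM in A549 siNT total RNA through 13.8, 10.6 and 5.53 CPM in the other A549 groups to 1.13 CPM in H460 siRIC polysomal RNA. In its order, the siNT total and siNT polysomal groups of A549 overlapped, as did siNT polysomal and siRIC total.

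**Figure D1:**
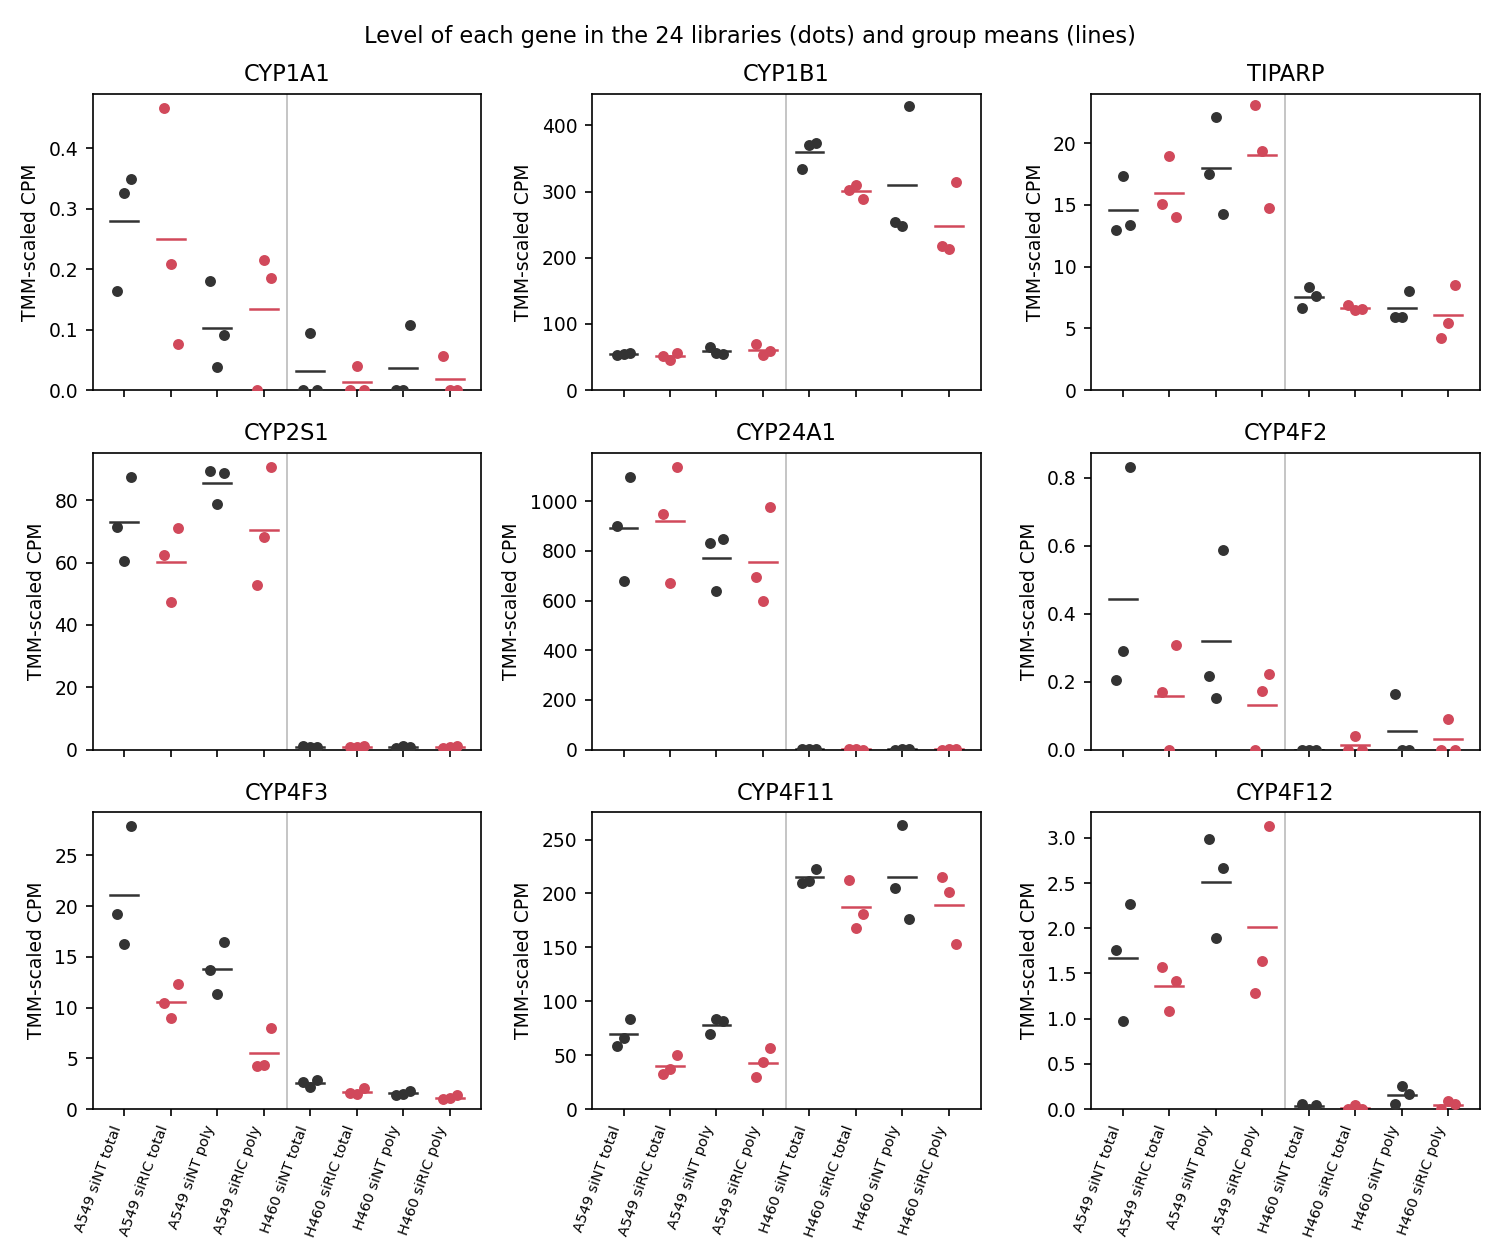
TMM-scaled CPM (linear axis from 0) of each of the 9 genes in the 24 libraries; dots are libraries in the order of their numbers, short lines are group means of 3, black is siNT, red is siRIC, and the vertical grey line divides A549 from H460. CYP24A1, CYP2S1, CYP4F3 and CYP4F12 are high in A549, CYP1B1 and CYP4F11 in H460, and CYP1A1 stays at or under 0.467 throughout.

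In A549, CYP4F3 fell in polysomal RNA after RICTOR depletion, and CYP4F11 was lower in all 3 same-numbered pairs of each fraction without passing. The share of all genes lower in all 3 pairs was not worked out. The AHR-induced genes and CYP24A1 showed no called change in the fit of all 12 libraries. In total RNA none of the 7 tested members was called, where 0.325% of 15396 genes were. In polysomal RNA 1 member, CYP4F3, was called lower, where 0.455% of genes were called lower and 0.676% were called in all. The median log2 change of the 7 members was −0.27 in total and −0.28 in polysomal RNA, beside 0.01 and 0.02 over all genes tested. Since the members were chosen with earlier results of these data known, these shares and medians describe them and are no test of the group.

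The receptor and its partner changed in opposite directions in polysomal RNA. AHR was at 20.2, 19.1 and 26.1 CPM in A549 siNT total RNA and at 38.1, 31.7 and 44.96 CPM after siRIC, with no overlap, as was true for 8.09% of genes that were higher. Its log2 change of 0.82 ± 0.17 did not pass in total RNA (adjusted p = 0.0578), and passed with the replicate number as a block (adjusted p = 0.00105). In polysomal RNA AHR rose from 19.5, 17.3 and 24.2 CPM to 30.6, 32.6 and 42.9 CPM (0.80 ± 0.17, adjusted p = 0.0431). That call was lost with scaling to library size only (adjusted p = 0.0722), with only the compared groups in the fit (adjusted p = 0.133), and in 8 of 12 fits that left out a library (up to adjusted p = 0.234). ARNT was lower by −0.72 ± 0.16 in total RNA without passing (adjusted p = 0.0754, 0.0189 with the block) and fell in polysomal RNA (−0.97 ± 0.16, adjusted p = 0.0107). The ARNT call was lost with only the compared groups in the fit (adjusted p = 0.0516) and without siNT polysomal number 1 or 2 (adjusted p = 0.0532 and 0.0521).

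The AHR-induced genes showed no called change in either fraction in that fit, with 1 exception under another setting. CYP1B1 was at 53.2, 55.0 and 56.8 CPM in A549 siNT total RNA and 52.3, 46.3 and 56.2 CPM after siRIC, overlapping groups with a log2 change of −0.09 ± 0.14. Its polysomal change was 0.05 ± 0.14. TIPARP was at 15.04, 18.9 and 14.03 CPM after siRIC in total RNA, a change of 0.14 ± 0.20, and 0.09 ± 0.20 in polysomal RNA, with overlapping groups in both. CYP2S1 was at 62.5, 47.5 and 71.0 CPM after siRIC, a change of −0.27 ± 0.19, and was lower in all 3 same-numbered pairs of total libraries. It was called lower in total RNA when only the compared groups entered, with the number as a block (adjusted p = 0.000673), a setting chosen after seeing the data. In polysomal RNA its change was −0.28 ± 0.19, with 1 of 3 pairs higher. CYP1A1 summed to 18 counts in siRIC total RNA beside 21 in siNT, too few to show a change. With the fit of all 12 libraries and no block, the smallest adjusted p among CYP1B1, TIPARP and CYP2S1 in these comparisons was 0.573.

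CYP24A1, the vitamin D catabolizing enzyme, varied between numbers more than between siRNAs. It was at 949, 672 and 1138 CPM in siRIC total RNA, close to the 900.3, 677 and 1098 CPM of the same numbers in siNT. The log2 change was 0.05 ± 0.22 in total and −0.03 ± 0.22 in polysomal RNA (adjusted p = 1 and 0.973). In both siRNA groups library 2 was the lowest and library 3 the highest.

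CYP4F3, the leukotriene B4 hydroxylase, was lower in every A549 siRIC library than in any siNT library of the same fraction. In total RNA it went from 19.2, 16.3 and 27.9 CPM to 10.5, 9.01 and 12.3 CPM, and in polysomal RNA from 13.7, 11.3 and 16.5 CPM to 4.28, 4.31 and 8.003 CPM. Such groups without overlap, lower after siRIC, were found for 9.61% and 7.15% of genes. The total change of −0.99 ± 0.23 did not pass (adjusted p = 0.0988), but did so with the number as a block (adjusted p = 0.00113) and by DESeq2 (adjusted p = 0.00665). In polysomal RNA CYP4F3 fell 2.48-fold (−1.31 ± 0.24, adjusted p = 0.0158). The polysomal call was lost without siNT polysomal number 1 (adjusted p = 0.0762), siNT polysomal number 3 (0.0757) or siRIC polysomal number 2 (0.0757), and stood at −1.15 (adjusted p = 0.0397) without the siRIC polysomal library of number 1 that stood apart.

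CYP4F11 had a like pattern at a smaller fold. It was at 58.7, 65.9 and 83.8 CPM in siNT total RNA and 32.9, 36.9 and 49.98 CPM after siRIC, and at 70.02, 83.1 and 81.7 CPM in siNT polysomal RNA and 29.3, 43.7 and 56.5 CPM after siRIC. The groups did not overlap in either fraction, as was true of 9.61% (total) and 7.15% (polysomal) of genes that were lower. Groups without overlap are bound to show the drop in each same-numbered pair. The log2 changes were −0.79 ± 0.21 in total and −0.85 ± 0.21 in polysomal RNA, and neither passed (adjusted p = 0.154 and 0.0779). With the replicate block the adjusted p-values were 0.00378 and 0.00108, and both changes also passed by DESeq2 (0.0246 and 0.00760). CYP4F12 overlapped between siRNAs, with changes of −0.28 ± 0.36 and −0.30 ± 0.34. CYP4F2 summed to 32 counts in siNT total RNA and 12 after siRIC, with 1 siRIC library at 0.

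**Figure D2:**
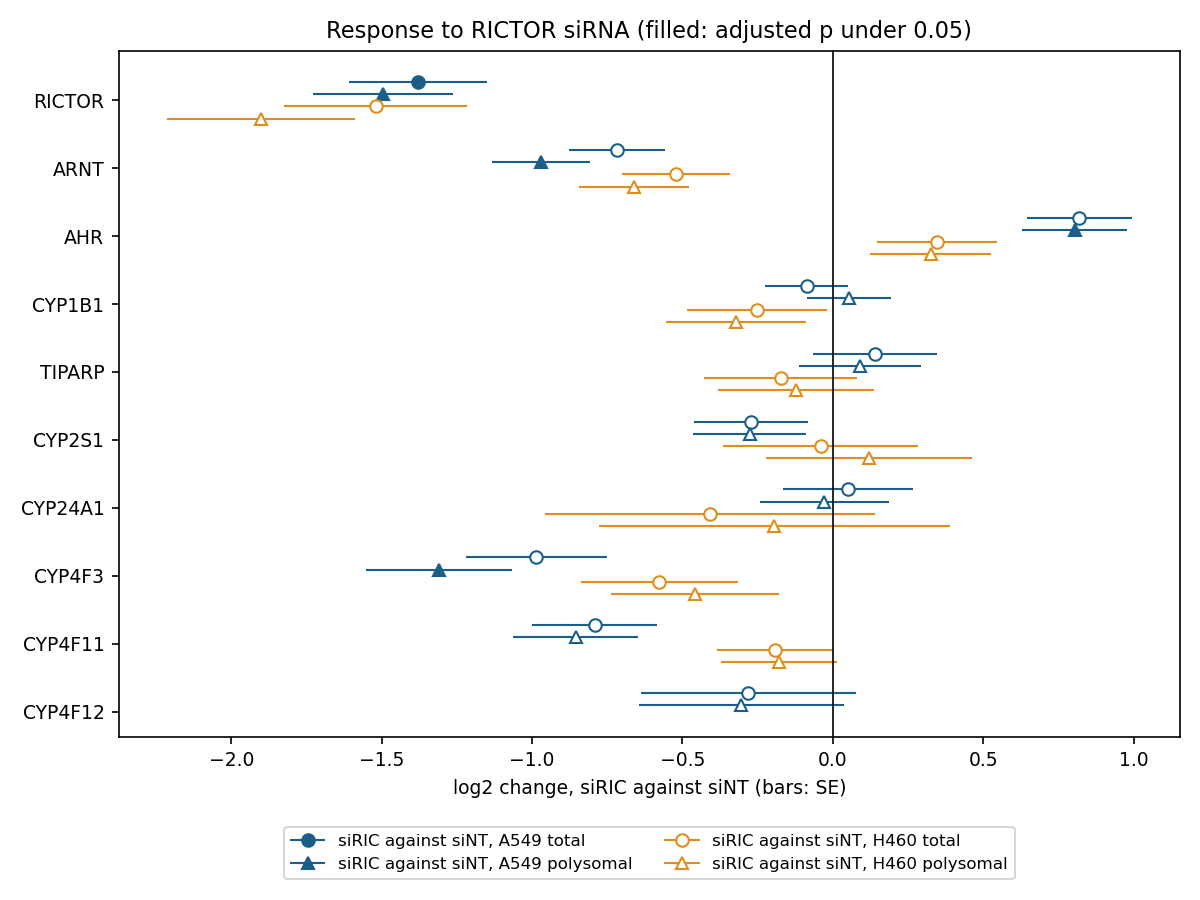
Log2 change (x axis) after RICTOR siRNA against control siRNA for the genes with a test (y axis); points are edgeR estimates, bars are SE, blue is A549, orange is H460, circles are total and triangles polysomal RNA, and filled points have an adjusted p under 0.05. Among the 9 genes the filled point is CYP4F3 in A549 polysomal RNA at −1.31; AHR lies right of 0 and ARNT left of 0 in all 4 comparisons.

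Because the CYP4F genes and their pseudogenes are close copies, the quantification can split reads between them, so values of single copies are uncertain. Between lines, all 24 CYP4F rows of the table summed were higher in H460 (1.18 ± 0.21 in total RNA, adjusted p = 4.81e-05), the direction of CYP4F11 and the opposite of CYP4F3 and CYP4F12. For siRIC the sum gave log2 changes of −0.78 ± 0.20 in A549 total RNA (adjusted p = 0.132) and −0.87 ± 0.20 in polysomal RNA (adjusted p = 0.0578). CYP4F11 held most of the CYP4F counts in both lines. Its share was 71.5% ± 3.1 in A549 siNT total RNA and 97.7% ± 0.4 in H460 (SD, n = 3). In A549, CYP4F3 made up 21.5% ± 2.6 of CYP4F counts in siNT total and 14.2% ± 2.3 in siNT polysomal RNA, and 18.9% ± 1.9 and 10.3% ± 1.8 after siRIC. In H460 it held 1.17% or less in the group means. Among other CYP4F rows the pseudogene CYP4F26P had the most counts, up to 69.0 in a library.

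**Figure D3:**
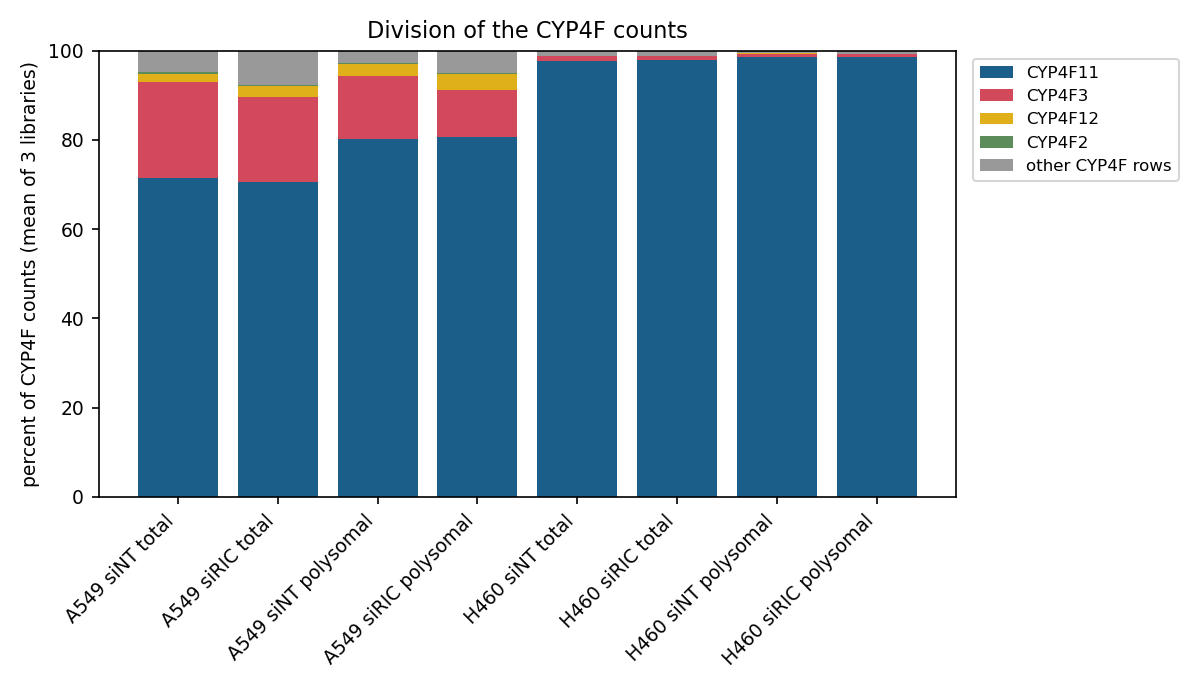
Percent of all CYP4F counts (y axis, from 0 to 100, mean of 3 libraries) held by each gene in the 8 groups; "other CYP4F rows" joins the remaining genes and pseudogenes. CYP4F11 makes up 70.6% to 80.8% in A549 and 97.7% to 98.6% in H460, and CYP4F3 is the next largest part in A549.

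The keratins KRT8 and KRT18 had changes close to those of CYP4F11 in A549. In siRIC total RNA they were at −0.65 ± 0.21 and −0.63 ± 0.19, and in polysomal RNA at −0.61 ± 0.21 and −0.66 ± 0.19, without passing. Of the 6 epithelial markers, 5 lay below 0 in total and 4 in polysomal RNA, with medians of −0.42 and −0.40. Their part in the CYP4F result was not tested.

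In H460, RICTOR depletion gave no called gene at all in total or polysomal RNA (0% of 14586 genes; 167 and 252 genes had an unadjusted p under 0.05, and DESeq2 called 4 and 1). All 6 tested members lay below 0 in total RNA, with a median of −0.22 beside 0.02 over all genes. CYP4F3 was the nearest to a change: 2.65, 2.18 and 2.88 CPM in siNT total RNA became 1.60, 1.4998 and 2.03 CPM after siRIC, with no overlap, as in 6.31% of genes that were lower. CYP4F3 had few counts in H460, 38 to 62 per total library and 17 to 33 per polysomal library. Its change was −0.58 ± 0.26 (unadjusted p = 0.0457, adjusted p = 1) in total and −0.46 ± 0.28 in polysomal RNA, where 1.37, 1.53 and 1.79 CPM stood beside 0.972, 1.05 and 1.37 CPM. CYP1B1 was at 303, 309 and 288 CPM after siRIC, below the 334, 370.4 and 373 CPM of siNT, a change of −0.25 ± 0.23 that did not pass, but did so with the block and only the compared groups (−0.27, adjusted p = 0.0432). CYP4F11 overlapped between siRNAs in both fractions (−0.19 ± 0.19 and −0.18 ± 0.19). AHR was 0.35 ± 0.20 and 0.32 ± 0.20 and ARNT −0.52 ± 0.18 and −0.66 ± 0.18, the same signs as in A549 and not passing. With the block and only the compared groups, AHR in total RNA (adjusted p = 0.0112) and ARNT in both fractions (0.00514 and 0.0198) did pass.

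For CYP24A1 and CYP2S1 in H460, counts per library were between 4 and 27, and their changes had SEs of 0.32 to 0.58. CYP24A1 was −0.19 ± 0.58 in H460 polysomal RNA and 0.45 without both number 3 libraries, so no direction can be given at this depth. CYP1A1, CYP4F2 and CYP4F12 had at most 4 counts in any H460 library.

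The estimates for CYP4F3 and CYP4F11 were further below 0 in A549 than in H460, but the difference between lines was not called for any member in the fit of all 24 libraries. In the test of the difference, 0 of 16507 genes were called in total RNA (382 with an unadjusted p under 0.05, 7 by DESeq2) and 1, no member, in polysomal RNA (0.00606%). In polysomal RNA the response of H460 minus that of A549 was 0.85 ± 0.39 for CYP4F3 (unadjusted p = 0.0408) and 0.68 ± 0.30 for CYP4F11 (unadjusted p = 0.0363), each with an adjusted p of 1. In total RNA the differences were 0.41 ± 0.36 and 0.60 ± 0.30, and that of CYP4F11 was called with the number as a block and only the compared groups in the fit (0.60, adjusted p = 0.00479). For CYP1B1 and TIPARP the differences were −0.17 ± 0.27 and −0.32 ± 0.33 in total RNA.

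Polysomal association was compared by setting polysomal against total RNA. CYP4F3 was under-represented in polysomal RNA relative to total RNA in all 3 same-numbered pairs of each line and siRNA, which no other member with a ratio in every pair showed. The share of all genes that were lower in every pair was not worked out. In siNT, 29.1% of genes in A549 and 18.8% in H460 were lower in polysomal RNA without overlap of the groups, so a lower polysomal level is common. In A549 siNT the log2 ratios of the CYP4F3 pairs ran from −0.76 to −0.49 and after siRIC from −1.29 to −0.62, and in H460 from −0.95 to −0.52 and from −0.72 to −0.51. The H460 ratios of CYP4F3 rest on 17 to 62 counts per library. The fitted difference in siNT was −0.59 ± 0.23 in A549 (adjusted p = 0.0544) and −0.72 ± 0.27 in H460 (adjusted p = 0.0689). Both passed once the replicate number was a block (adjusted p = 0.00210 and 0.0304). The A549 value also passed by DESeq2 (adjusted p = 0.0421), with no filter (0.00922) and with only the compared groups in the fit (0.0214). The H460 value passed without the number 3 libraries (−0.81, adjusted p = 0.0313) and with scaling to library size only (0.0469), and did not pass by DESeq2 (0.0902), with no filter (0.251), or with only the compared groups, either without the block (0.148) or with it (0.163). CYP4F11, at the other end of the CYP4F stretch on chromosome 19, was 0.19 ± 0.21 and −0.01 ± 0.19. With all 12 libraries of a line in the fit, TMM scaling and no block, none of the tested members was called, where 37.1% of genes were called in A549 and 22.9% in H460.

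Of the remaining members, CYP24A1 lay below 0 in all 3 pairs of both A549 siRNA groups (−0.45 to −0.08, fitted −0.19 ± 0.22). TIPARP lay above 0 in all 6 A549 pairs (0.03 to 0.62, fitted 0.32 ± 0.20 in siNT) and had mixed signs in H460. With the block and only the compared groups, TIPARP, CYP2S1 and CYP4F12 were called higher in A549 polysomal than total RNA (0.35, 0.29 and 0.68, adjusted p = 0.00999, 0.0188 and 0.0221). CYP1B1 was −0.22 ± 0.23 in H460 and −0.50 (adjusted p = 0.00234) without both number 3 libraries, whose pair was the one above 0. The receptor AHR was lower in H460 polysomal than total RNA (−0.88 ± 0.20, adjusted p = 0.00873), at 39.3, 47.7 and 49.5 CPM beside 84.3, 76.5 and 89.1 CPM, and not in A549 (−0.08 ± 0.18, adjusted p = 0.745). Mitochondrially encoded RNA took 13.5% to 17.96% of counts in total and 2.04% to 4.18% in polysomal libraries, so the fractions differ in content, and the part of this in the ratios was not tested.

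RICTOR depletion did not detectably alter the polysomal-to-total ratio of any member. No gene was called in this test in either line (0%; 177 genes in A549 and 89 in H460 had an unadjusted p under 0.05, and DESeq2 called 1 in each). The CYP4F3 ratio differed by −0.32 ± 0.33 in A549 and 0.12 ± 0.38 in H460, and the CYP4F11 ratio by −0.06 ± 0.29 and 0.01 ± 0.27.

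**Figure D4:**
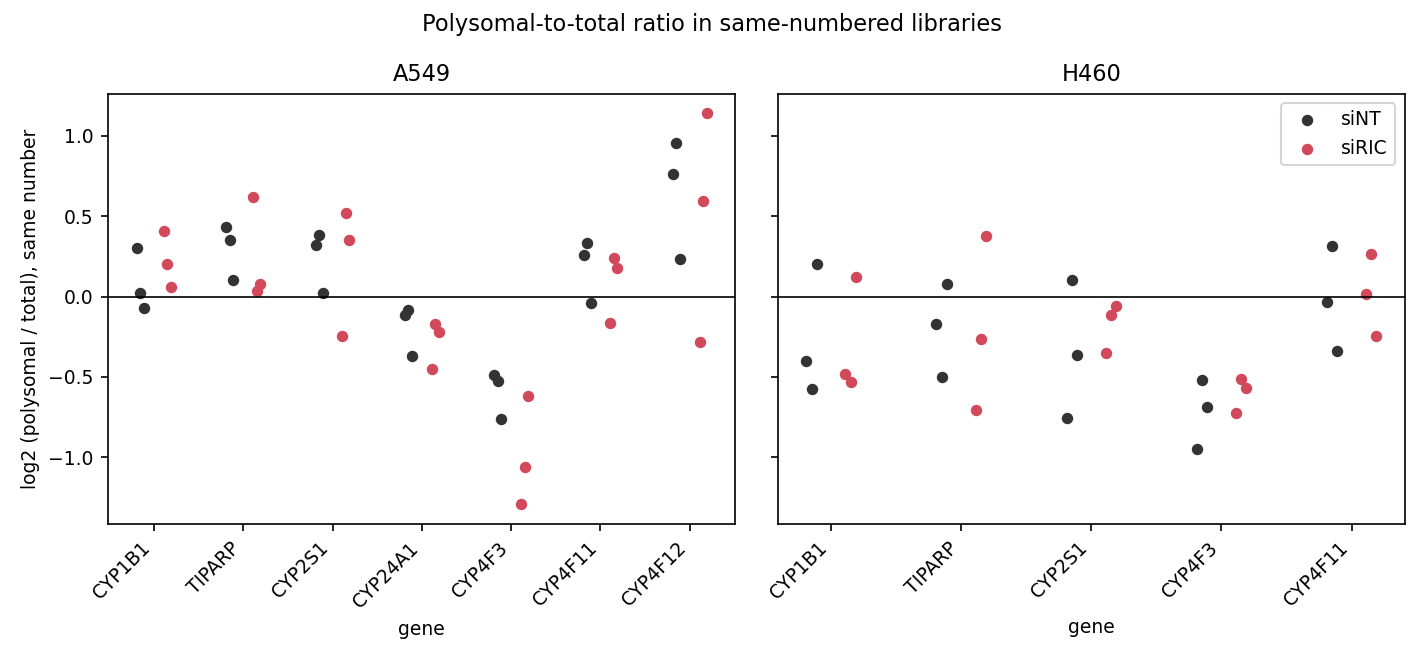
Log2 ratio of polysomal to total CPM (y axis) in libraries of the same line, siRNA and number, for genes with a ratio in all 6 pairs of a line (x axis); each dot is a pair, black is siNT and red is siRIC. CYP4F3 lies under 0 in every pair, between −1.29 and −0.49, and CYP24A1, plotted for A549 alone, also lies under 0; the other genes have pairs on both sides of 0 in at least 1 line.

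The genes around these pathways mostly showed no called response in A549. Among 18 AHR target genes, of which 4 are members and 13 were tested in A549, none was called in total RNA, and in polysomal RNA 1 rose and 1 fell, where 0.221% of all genes tested were called higher and 0.455% lower. EREG, the growth factor epiregulin, rose (1.02 ± 0.19, adjusted p = 0.0164; means of 65.0 CPM in siNT and 131 CPM in siRIC), and PDGFA, a platelet-derived growth factor chain, fell (−0.72 ± 0.15, adjusted p = 0.0302). The list's median change was −0.22 in total and −0.06 in polysomal RNA. NQO1 and ALDH3A1, detoxifying enzymes often used as AHR readouts, were −0.23 ± 0.13 and −0.22 ± 0.16 in total RNA without passing. AHRR, the AHR repressor, was −0.82 ± 0.65 and −1.16 ± 0.73. Of the 12 genes for the receptor and its regulators, all tested, AHR and ARNT were the ones called in polysomal RNA, where 0.676% of all genes were called, and the chaperones HSP90AA1 and PTGES3 were −0.02 and −0.17 in total RNA.

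P450 enzymes need electrons from partner proteins. Of 8 such donors, CYB5A, a cytochrome b5, was the 1 that fell in A549 polysomal RNA, beside the 0.455% of all genes called lower (−0.77 ± 0.14, adjusted p = 0.0143) and was −0.54 ± 0.14 in total RNA (adjusted p = 0.139). POR, the reductase of the microsomal P450s, was −0.41 ± 0.23 and −0.37 ± 0.22 without passing, and FDX1, the mitochondrial donor used by CYP24A1, was 0.17 and 0.11. Of 18 genes of vitamin D metabolism and response, 9 were tested in A549 and none was called in either fraction, with medians of 0.05 and 0.11. The vitamin D receptor VDR, which drives CYP24A1, was at a mean of 2.45 CPM in A549 siNT total RNA and 14.1 CPM in H460 (log2 difference 2.52 ± 0.33, adjusted p = 7.18e-07), the opposite order to CYP24A1. CYP27B1, which makes active vitamin D, was also higher in H460 (2.04 ± 0.33, adjusted p = 1.73e-05).

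Genes with the most similar pattern were ranked by Pearson's r over the 24 libraries after centring log2 CPM within each line and fraction, so that differences between lines and fractions do not enter. The values describe these libraries, which share siRNA group, number and depth, and carry no test. CYP4F3 was close to C1S (r = 0.93) and PTPRJ (0.91), and CYP4F11 was closest to L1CAM (0.90), C1R (0.89) and ACSS1 (0.89). CYP1B1 was closest to KIF5B (0.93), EHBP1 (0.92) and NAMPT (0.91), and TIPARP to CYB5D1 (0.88), NIP7 (0.85) and ETF1 (0.84). CYP2S1 was closest to FAM168A (0.87), CNTNAP1 (0.83) and SAMHD1 (0.82). The nearest genes to CYP24A1 (TMED7-TICAM2, 0.77) and CYP4F12 (SCD, 0.75) were less alike.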

How the data were processed

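RNA was measured by sequencing 24 libraries. The authors deposited estimated counts per gene from salmon, not normalized, per the file headers; 9.40% of values were not whole, and they were rounded. The submitters' processing notes name bcl2fastq 2.20 and GRCh38; for salmon's version, the annotation and filters, nothing is given in the sources used here. The labels name polyA RNA, while their protocol names a ribosomal RNA depletion kit for total RNA, so the RNA selected is not settled. All columns belonged to the series. Gene symbols matched 60437 of 60666 IDs.

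Each line's 12 libraries were fitted together (24 for comparisons between lines) with edgeR 4.0.16 in R 4.3.3: filterByExpr by group, TMM scaling, quasi-likelihood F-tests and Benjamini-Hochberg adjustment over all genes tested, with calls at an adjusted p under 0.05. The filter kept 7 members in A549, 6 in H460 and 7 over both lines. SE is the log2 change divided by the root of F. Counts of CYP1A1, CYP4F2 and CYP4F12 between lines were compared as ratios with exact 95% intervals. Alternatives were DESeq2 1.42.0, other scalings, no filter, the replicate block, only the compared groups, leaving out libraries and summing CYP4F rows. The fit was tried on A549 counts simulated with the same dispersion for every gene. Replicate effects and outlying libraries were not simulated, so the power in these data was not measured. The rule named the members, AHR, ARNT and RICTOR, of each list the genes called and at most 4 others with the smallest unadjusted p, and the 3 genes most alike by Pearson's r among those with a mean of 5 CPM or more; 1 gene that the rule named is not reported here. AHRR, NQO1, ALDH3A1, HSP90AA1, PTGES3, POR, FDX1, VDR, ALOX5, ALOX5AP, LTC4S, CYP4F26P and the markers were named for their role after their values were seen. The members and lists were chosen with earlier results of these data known.

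Same-numbered libraries of a line are paired through the batch label; deviations of such pairs from their group means correlated at 0.02 to 0.26 in A549 and 0.05 to 0.67 in H460, and those of other pairs at −0.27 to 0.02 and −0.50 to 0.13. Replicates differed by more than sampling noise (chi-square per degree of freedom 9.42 to 200.4), so each counted as a library.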

Additional observations from a re-analysis of the deposited data

How the results depend on the processing

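No call of a gene changed direction. The calls between lines of the 6 members that passed the filter in each line held under the other scalings, DESeq2, no filter, only the compared groups and each library left out; with the CYP4F rows summed, CYP4F3 and CYP4F11 have no value of their own. A block within each line leaves the spread between numbers out of the error between lines, so it says nothing about those calls. Of 116 gene values, 33 changed sign in at least 1 alternative, none with an adjusted p under 0.42 on either side. With main counts of 50 and 104 called genes for siRIC in A549 total and polysomal RNA, DESeq2 gave 164 and 346, no filter 257 and 413, the replicate block 258 and 540, only the compared groups 152 and 35, and that with the block, which was chosen after seeing the data, 2794 and 336. In H460, with 0 and 0, these gave 4 and 1 (DESeq2), 3 and 7 (no filter), 3 and 0 (only the compared groups), 517 and 100 (with the block), and 2 and 2 without both number 3 polysomal libraries. The ratio tests, at 0 and 0, gave 1 and 1 by DESeq2 and 59 and 3 with no filter. Polysomal against total in H460, at 3347, gave 5187 with the block, 2146 with only the compared groups and 7031 without the number 3 libraries. For the difference between lines in response, at 0 and 1, DESeq2 gave 7 and 9, no filter 52 and 47, the block 0 and 3, only the compared groups 2 and 0, with the block 548 and 4, and without the number 3 libraries 2 and 3. Leaving out 1 library gave 7 to 172 and 19 to 456 (A549 total and polysomal), 0 to 1 and 0 to 1 (H460), 0 to 2 and 0 to 1 (ratios), 1832 to 4580 (H460 polysomal against total), 0 to 1 (response difference, total) and 0 to 2 (polysomal). The causes were not tested. The block with only the compared groups left no residual degrees of freedom between lines and was not run there. Beyond the blocked values printed in the report, the block changed no other call of a member. CYP1A1 and CYP4F2 in both lines, and CYP4F12, CYP2S1 and CYP24A1 in H460, are limited by depth. CYP4F3 in H460, with 17 to 62 counts per library, is also low. The sign changes with 1 library left out were, for siRIC in A549, TIPARP (−0.012 to 0.30) and CYP24A1 (−0.12 to 0.22) in total RNA and CYP1B1 (−0.051 to 0.15), TIPARP (−0.061 to 0.27) and CYP24A1 (−0.24 to 0.11) in polysomal RNA. In H460 they were CYP2S1 (−0.12 to 0.068) in total RNA and TIPARP (−0.44 to 0.092), CYP2S1 (−0.054 to 0.35), CYP4F11 (−0.31 to 0.019) and CYP24A1 (−0.68 to 0.41) in polysomal RNA. For the siRIC effect on the ratio in A549 they were TIPARP (−0.21 to 0.13), CYP2S1 (−0.21 to 0.17), CYP4F11 (−0.29 to 0.16), CYP4F12 (−0.48 to 0.25), CYP24A1 (−0.29 to 0.10), RICTOR (−0.43 to 0.15) and AHR (−0.16 to 0.13). In H460 this effect changed sign for CYP1B1 (−0.28 to 0.24), TIPARP (−0.27 to 0.26), CYP2S1 (−0.0043 to 0.39), CYP4F3 (−0.041 to 0.25), CYP4F11 (−0.11 to 0.21), CYP24A1 (−0.28 to 0.83), RICTOR (−0.62 to 0.088), ARNT (−0.21 to 0.0091) and AHR (−0.13 to 0.17). Polysomal against total changed sign for ARNT (−0.20 to 0.0013) and AHR (−0.21 to 0.051) in A549 and CYP4F11 (−0.20 to 0.14) and CYP24A1 (−0.89 to 0.11) in H460, and the polysomal response difference for TIPARP (−0.53 to 0.0069), CYP24A1 (−0.63 to 0.52) and RICTOR (−0.68 to 0.11). Without both number 3 libraries, H460 polysomal siRIC changes turned to −0.056 (CYP2S1) and 0.45 (CYP24A1), ratio effects to 0.033 (CYP1B1), −0.11 (TIPARP) and −0.0064 (CYP2S1), CYP4F11 polysomal against total to 0.14 and the CYP24A1 response difference to 0.53. The A549 ratio effect turned to 0.014 for CYP2S1 and 0.0022 for AHR with RLE scaling, to 0.014 and 0.0021 by DESeq2, and to 0.0095 for CYP2S1 with no filter. CYP4F11 in H460 polysomal against total RNA turned to 0.029 with RLE scaling and by DESeq2, 0.021 with no filter and 0.010 with only the compared groups. Its H460 ratio effect was −0.0021 with no filter, and CYP24A1 in A549 polysomal RNA was 0.022 with scaling to library size only.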

Other observations

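The lines also differed in other enzymes of arachidonic acid and vitamin K handling. Of 15 leukotriene and arachidonate genes, 10 were tested in siNT total RNA; 6 were higher and 2 lower in H460, where 26.2% and 28.9% of all genes were. PTGS2, the inducible cyclooxygenase, was at a mean of 48.9 CPM in A549 and 6.41 CPM in H460, while PTGES, a prostaglandin E synthase, was at 15.6 and 170 CPM and EPHX1, the microsomal epoxide hydrolase, at 157 and 840 CPM. ALOX5 and ALOX5AP, which start leukotriene synthesis, were at or under 0.215 CPM in siNT total RNA, and LTC4S was at 0. Of 5 genes of vitamin K and E handling, VKORC1, VKORC1L1 and GGCX were higher in H460, and none was lower. Of 49 other cytochrome P450 genes, 14 were tested between lines, with 7 higher and 5 lower in H460; CYP51A1, the sterol demethylase, was at 68.6 CPM in A549 and 227 CPM in H460. None of these lists held a call for RICTOR depletion in A549, where 0.325% (total) and 0.676% (polysomal) of all genes were called. In H460 no gene at all was called, so the lists could hold none there.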
